A study of Homo sapiens with 4 samples.

Results

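The 10 genes described here encode ligands of the transforming growth factor-β (TGF-β) and activin families, receptors that bind them, and secreted proteins that store or capture them. The ligand genes are *TGFB1*, *TGFB2*, *TGFB3* and *INHBA*, the receptor and co-receptor genes are *TGFBR1*, *TGFBR2*, *TGFBR3* and *ACVR1*, and *LTBP1* and *FST* encode a storage protein and an activin-binding protein. They were chosen by gene symbol, with earlier results of these data known, and all 10 had a row among the 33694 genes of the deposited tables. Their RNA was measured by 3′ scRNA-seq (10x Genomics) in OVCA420, an established epithelial ovarian cancer cell line, in 4 libraries. Ctrl is the library of control cells, and 1-day, 3-day and 7-day are the libraries of cells given TGF-β1 protein at 10 ng/mL for 1, 3 or 7 days to induce an epithelial-mesenchymal transition (EMT). All conditions come from the same line, no genetic change is labelled in any of them, and the libraries were timed to be collected together. Each condition had 1 library, so no test between conditions was possible and no p-value is given.

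TGF-β ligands are secreted in a latent form, held by their own propeptide and tethered to the matrix by latent TGF-β binding proteins, and have to be released before they can signal. The released ligand binds the type II receptor TGFBR2, which recruits and activates the type I receptor TGFBR1, and the complex phosphorylates SMAD proteins that enter the nucleus. Activin A, a dimer of the *INHBA* product, signals through its own type II and type I receptors, and follistatin, the product of *FST*, binds activin and keeps it from its receptors. Epithelial cells exposed to TGF-β are known to undergo EMT, and TGF-β and activin ligands made by the same cells can act on them in turn. The assay reads RNA, so the TGF-β1 protein that was added to the medium is not counted in the values of *TGFB1*.

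The levels rest on 933 cells of Ctrl and 937, 705 and 569 cells of 1-day, 3-day and 7-day, in which the median number of unique molecular identifiers (UMIs) per cell lay between 30270 and 43553. These are the first cells of each library in barcode order, 3170 read of 10710 barcodes listed, and between 1 and 7 barcodes were shared by any pair of libraries. The epithelial markers were all detected in every library, with a summed level between 3254 and 4707 CPM, but the ovarian markers *PAX8* and *WFDC2* were below 1 CPM in all 4 and *MUC16* was below 1 CPM in the treated libraries. Summed markers of leukocytes, endothelial cells, fibroblasts and muscle were at most 6.26, 5.40, 1.37 and 1.58 CPM. The share of cells called as G1 went from 27.2% in Ctrl to 74.8%, 49.2% and 39.2% at the 3 time points. The 7 reference targets of TGF-β signaling, *TGFBI* and *PMEPA1* among them, were all at least 2-fold above Ctrl in each treated library, with a median log2 ratio of 4.49, 4.89 and 4.38.

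A level is given here in CPM, the UMIs of a gene per 1000000 UMIs of all genes, each summed across cells first, and brackets hold its exact Poisson 95% interval. A log2 ratio of levels has an exact conditional 95% interval. These intervals cover counting error only, and neither the spread between cells nor that between cultures. They treat each UMI as a separate draw, so they are too narrow for genes spread unevenly over cells, *FST* and *INHBA* among them. A gene was counted as higher or lower when the ratio was at least 2-fold, its interval left out 0, and both libraries together held at least 50 UMIs. At 1-day, 5 of the 10 genes were higher than Ctrl (*TGFB1*, *TGFBR1*, *TGFBR2*, *ACVR1* and *FST*) where 9.87% of the 13075 genes with enough UMIs were, and 1 gene was lower (*TGFBR3*) where 11.3% were. At 3-day, *INHBA* joined those 5 to make 6 genes higher, against 10.5% of all genes, and *TGFBR3* was again the 1 gene lower, against 9.58%. At 7-day, *ACVR1* was no longer 2-fold above Ctrl, which left 5 genes higher, against 12.8%, and *TGFBR3* lower, against 8.57%. The genes with enough UMIs were 7 of the 10 at 1-day and 8 at 3-day and 7-day. *INHBA* had enough only through the treated libraries, and *TGFBR3*, the gene counted as lower, only through Ctrl. Over the members with enough UMIs, these 2 included where they passed, the median log2 ratio to Ctrl was 1.53, 1.71 and 1.47. Over all genes it was -0.08, -0.01 and 0.07. Because the 10 genes were chosen with earlier results of these data known, these shares and medians describe them. They are not a test of the 10 genes against all genes. The 3 comparisons share the Ctrl library and are therefore not independent of each other.

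**Figure D1:**
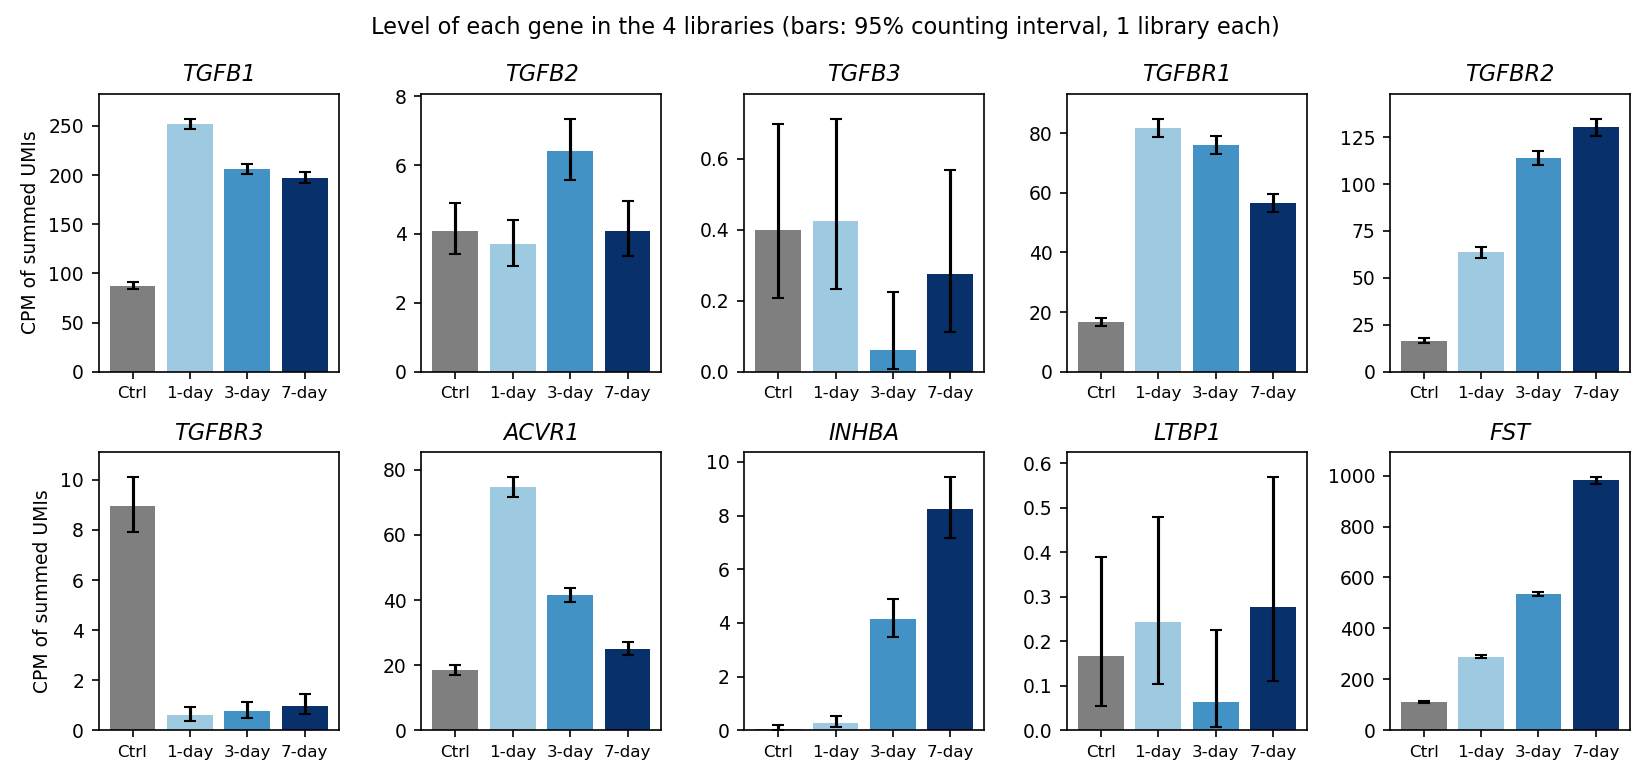
Level of each of the 10 genes in the 4 libraries, in CPM of summed UMIs on a linear axis that starts at 0 and differs between panels. Bars are the value of 1 library each and lines the exact Poisson 95% counting interval. *FST*, *TGFBR2* and *INHBA* are highest at 7-day, *TGFB1*, *TGFBR1* and *ACVR1* at 1-day, and *TGFBR3* in Ctrl.

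Among the ligands, *TGFB1*, which encodes the same cytokine that was given to the cells, was at 87.4 CPM (84.1 to 90.8) in Ctrl, 252 CPM (246 to 257) at 1-day, 206 CPM (201 to 211) at 3-day and 197 CPM (192 to 203) at 7-day. It was thus highest at 1-day and stayed above Ctrl at every time point. The log2 ratio to Ctrl was 1.53 (1.46 to 1.59) at 1-day, 1.24 (1.17 to 1.30) at 3-day and 1.18 (1.11 to 1.24) at 7-day, or 2.88-, 2.36- and 2.26-fold. From 3-day to 7-day the log2 ratio was -0.06 (-0.12 to -0.01), so that these neighbours in the order of levels were nearly equal. *TGFB1* lies on chr19:41301587-41353922 (minus strand, GRCh38 as for all positions here). At its 3′ side this span, which takes in all annotated transcripts, overlaps *HNRNPUL1* on the opposite strand. Reads in the overlap can be told apart only by strand, and how many *TGFB1* reads lie there was not examined. *HNRNPUL1* itself was at 171, 129, 156 and 185 CPM in Ctrl, 1-day, 3-day and 7-day, and was therefore lowest in the library where *TGFB1* was highest.

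*TGFB2* and *TGFB3* encode the other TGF-β isoforms, and neither was counted as higher or lower at any time point. *TGFB2* (chr1:218345336-218444619, plus strand) was at 4.10 CPM (3.41 to 4.89) in Ctrl, 3.70 CPM (3.07 to 4.42) at 1-day, 6.41 CPM (5.56 to 7.35) at 3-day and 4.10 CPM (3.35 to 4.96) at 7-day. Only the 3-day value stood apart from Ctrl beyond counting error, with a log2 ratio of 0.64 (0.32 to 0.98), and the intervals of 1-day and 7-day against Ctrl included 0. In the first part of the cells in barcode order this 3-day ratio was 0.29 (-0.18 to 0.77), with an interval that included 0, and in the second part 0.99 (0.51 to 1.49). *TGFB3* (chr14:75958097-75983011, minus strand) had 12 UMIs in all of Ctrl and 14, 2 and 7 UMIs in the libraries of 1, 3 and 7 days, or between 0.0622 and 0.425 CPM. At these counts no order of the neighbouring levels could be read, although the 3-day value alone lay under that of Ctrl, by -2.68 (-5.89 to -0.52) as a log2 ratio on 14 UMIs. *TGFB3* also lies within *IFT43* on the opposite strand, a gene at 16.3 to 38.1 CPM.

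*INHBA* (chr7:41667168-41705834, minus strand), the gene for the subunit of activin A, went from next to no UMIs to a clear signal. It had 1 UMI in all of Ctrl, and 9, 133 and 209 UMIs after 1, 3 and 7 days, which is 0.0333 CPM (0.000844 to 0.186), 0.273 CPM (0.125 to 0.519), 4.14 CPM (3.46 to 4.90) and 8.23 CPM (7.16 to 9.43). The level was higher in each library than in the one before it, and the intervals of Ctrl and 1-day did not reach those of 3-day and 7-day. The log2 ratio to Ctrl was 6.96 (4.45 to 12.3) at 3-day and 7.95 (5.45 to 13.3) at 7-day, and at 1-day it was 3.03 (0.18 to 8.49) on 10 UMIs, too few to be counted. Because Ctrl held 1 UMI, the steps between treated libraries had narrower intervals. The log2 ratio was 3.92 (2.95 to 5.08) from 1-day to 3-day and 0.99 (0.67 to 1.32) from 3-day to 7-day. The 1-day side of the earlier step is 9 UMIs in 5 cells, and *INHBA* had enough UMIs for that step only through 3-day. Other ways of processing were tried on the ratios to Ctrl alone. From 1-day to 3-day, *INHBA* was the 1 gene of the 10 counted as higher, where 5.58% of all genes were, and none was lower, where 4.72% were. From 3-day to 7-day none of the 10 was counted in either direction, where 2.85% of all genes were higher and 1.34% lower. The 3-day value rested on few cells. Without the 10 cells with most *INHBA* UMIs in each library, 40 UMIs remained and the gene was no longer counted, with a log2 ratio of 3.64 against a floor of 3 UMIs for Ctrl.

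*INHBA* and *FST* code for a ligand and the protein that captures it, and both rose to 7-day, so the DNA upstream of each is shown, as it stands in RefSeq for GRCh38.p14, from 250 to 6 bases before the start of the MANE Select transcript and read 5′ to 3′ along the gene. For *INHBA*, and for *TGFBR3* further on, this start lies inside the span of the gene given here, which holds longer transcripts too. The *INHBA* window is chr7:41703096-41703340 on the minus strand and the *FST* window chr5:53480379-53480623 on the plus strand. Capitals mark TATAAA, the letters of the TATA box, in *INHBA* and a match to TGANTCA in *FST*. TGANTCA takes in the letters bound by AP-1 factors, with C or G at N, but the *FST* match has T there.

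INHBA: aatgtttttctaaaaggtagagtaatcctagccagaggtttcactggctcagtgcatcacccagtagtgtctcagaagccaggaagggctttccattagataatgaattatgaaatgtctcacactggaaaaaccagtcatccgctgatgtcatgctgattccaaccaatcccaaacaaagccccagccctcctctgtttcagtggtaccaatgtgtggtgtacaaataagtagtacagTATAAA

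FST: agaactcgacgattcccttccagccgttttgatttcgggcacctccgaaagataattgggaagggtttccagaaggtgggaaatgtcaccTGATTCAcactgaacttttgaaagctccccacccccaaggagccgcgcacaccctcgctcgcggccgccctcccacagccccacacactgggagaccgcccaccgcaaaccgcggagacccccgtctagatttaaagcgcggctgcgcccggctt

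Both strands of the upstream windows of all 10 genes were searched for 6 motifs, and a match describes the letters only. TGANTCA, with any letter at N, was present in 1 of the 10 windows, that of *FST*, and in 6.51% of 35116 windows of the same length upstream of RefSeq starts. Neither value counts AP-1 sites alone. TATAAA was present in 3 windows (*TGFB2*, *TGFB3* and *INHBA*), against 10.6%. Counted from the start, its first base lay at -29 in *TGFB2*, at -30 in *TGFB3* and at -11 in *INHBA*. CAGAC, the letters of a SMAD binding element, was present in 4 (*TGFB2*, *TGFBR1*, *ACVR1* and *LTBP1*), against 37.4%, and the SMAD palindrome GTCTAGAC in 0, against 0.174%. GGGCGG, the letters of an Sp1 box, was present in 5 (*TGFB1*, *TGFBR2*, *TGFBR3*, *ACVR1* and *FST*), against 42.1%, and GGAATG, a TEAD site, in 1 (*TGFB2*), against 11.7%.

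Both receptors that TGF-β needs to signal were higher after treatment, with different courses. *TGFBR1* (chr9:99104038-99154192, plus strand), the type I receptor, was at 16.6 CPM (15.2 to 18.2) in Ctrl, 81.7 CPM (78.6 to 84.8) at 1-day, 75.9 CPM (73.0 to 79.0) at 3-day and 56.6 CPM (53.7 to 59.6) at 7-day. It was highest at 1-day, and its log2 ratio to Ctrl was 2.30 (2.16 to 2.44), 2.19 (2.05 to 2.33) and 1.77 (1.62 to 1.92) at the 3 time points. From 1-day to 3-day the log2 ratio was -0.10 (-0.18 to -0.03), and from 3-day to 7-day -0.42 (-0.52 to -0.33).

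*TGFBR2* (chr3:30606601-30694142, plus strand), the type II receptor that binds the ligand first, was at 16.5 CPM (15.1 to 18.1) in Ctrl, 63.6 CPM (60.9 to 66.3) at 1-day, 114 CPM (110.2 to 117.6) at 3-day and 130.3 CPM (125.9 to 134.8) at 7-day. Unlike *TGFBR1*, it was higher in each library than in the one before it. The log2 ratio to Ctrl was 1.94 (1.80 to 2.09), 2.78 (2.65 to 2.92) and 2.98 (2.84 to 3.12), or 3.84-, 6.88- and 7.88-fold, and most of the step was made by 3-day, after which the log2 ratio of 7-day to 3-day was 0.19 (0.13 to 0.26).

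*TGFBR3* (chr1:91680343-91906335, minus strand) encodes betaglycan, a co-receptor that presents TGF-β ligands, TGF-β2 above all, to TGFBR2, and it was the 1 gene of the 10 counted as lower. It had 269 UMIs in Ctrl and 20, 24 and 25 at 1-day, 3-day and 7-day, which is 8.97 CPM (7.93 to 10.1), 0.607 CPM (0.371 to 0.937), 0.747 CPM (0.478 to 1.11) and 0.985 CPM (0.637 to 1.45). The Ctrl value stood apart from the 3 treated ones, and the intervals of the ratios between neighbouring treated libraries included 0. The log2 ratio to Ctrl was -3.89 (-4.62 to -3.23) at 1-day, -3.59 (-4.25 to -2.98) at 3-day and -3.19 (-3.84 to -2.59) at 7-day, or 14.8-, 12.0- and 9.11-fold lower.

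*TGFBR2* and *TGFBR3* moved in opposite directions, and their upstream windows are shown side by side as chr3:30606351-30606595 on the plus strand and chr1:91886157-91886401 on the minus strand, from RefSeq and with the same distances from the start. Of the motifs that were searched, both held the Sp1 letters alone, and no letters are in capitals.

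TGFBR2: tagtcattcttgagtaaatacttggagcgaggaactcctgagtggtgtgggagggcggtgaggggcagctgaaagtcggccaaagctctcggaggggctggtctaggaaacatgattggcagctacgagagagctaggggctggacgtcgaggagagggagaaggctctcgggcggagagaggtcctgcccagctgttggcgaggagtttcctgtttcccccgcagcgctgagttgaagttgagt

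TGFBR3: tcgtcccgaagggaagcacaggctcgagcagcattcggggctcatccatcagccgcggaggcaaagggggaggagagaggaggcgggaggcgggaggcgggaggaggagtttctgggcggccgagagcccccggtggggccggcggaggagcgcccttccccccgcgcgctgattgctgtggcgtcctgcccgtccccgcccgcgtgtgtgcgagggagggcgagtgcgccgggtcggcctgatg

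*ACVR1* (chr2:157736251-157876330, minus strand) encodes a type I receptor of the family, also called ALK2, that is best known for signaling with bone morphogenetic proteins (BMPs) and also binds activin. It was at 18.5 CPM (17.0 to 20.1) in Ctrl, 74.7 CPM (71.8 to 77.7) at 1-day, 41.5 CPM (39.3 to 43.8) at 3-day and 25.0 CPM (23.1 to 27.0) at 7-day. The level was highest at 1-day and lower in each library after that, but the 7-day value still lay above Ctrl. The log2 ratio to Ctrl was 2.01 (1.88 to 2.15), 1.16 (1.02 to 1.31) and 0.44 (0.27 to 0.60), and all neighbours in the order of levels differed beyond counting error. At 3-day the ratio was close to the limit of 2-fold, and in G1 cells alone it was 0.92 (0.68 to 1.17), just under it and not counted.

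**Figure D2:**
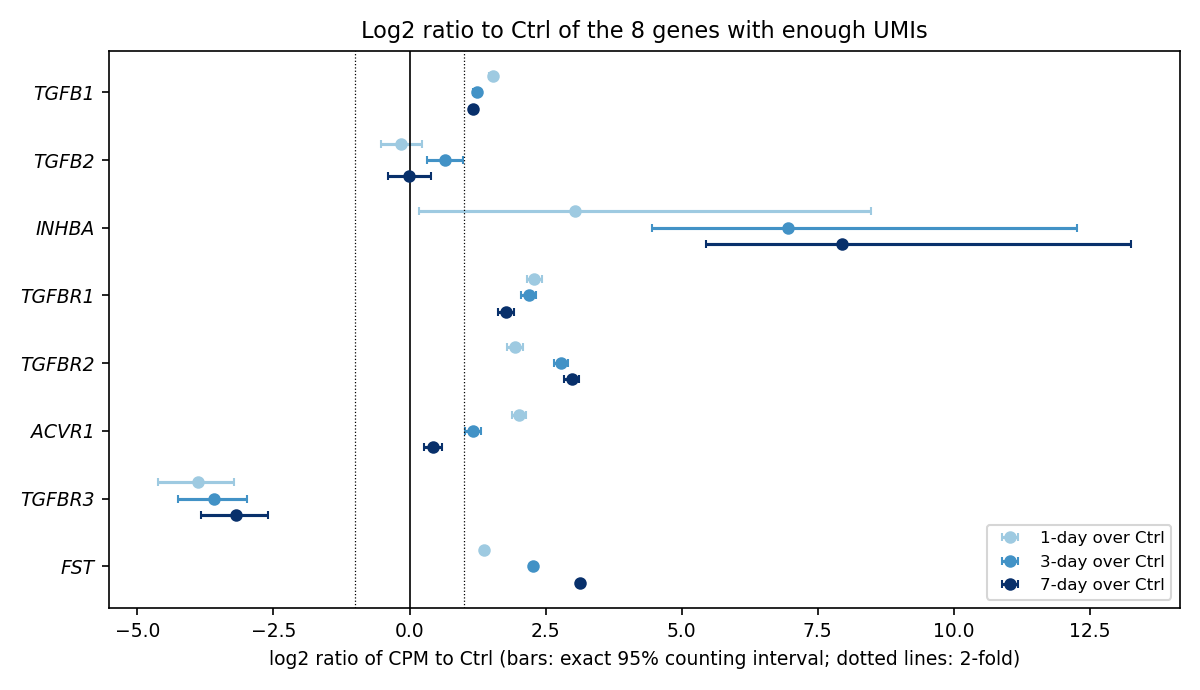
Log2 ratio of the level to Ctrl at 1-day, 3-day and 7-day for the 8 genes that had at least 50 UMIs with Ctrl at some time point. Points are 1 library against the 1 Ctrl library, bars the exact conditional 95% counting interval, and dotted lines mark 2-fold. *TGFBR3* lies left of the lower line at all 3 time points, *ACVR1* moves towards 0, and *FST* and *TGFBR2* move away from it, while the wide bars of *INHBA* come from the 1 UMI in Ctrl.

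*LTBP1* (chr2:32946953-33399509, plus strand) encodes a latent TGF-β binding protein, which tethers the latent complex to the matrix, and it was close to absent from these libraries. It had 5, 8, 2 and 7 UMIs in Ctrl, 1-day, 3-day and 7-day, or between 0.0622 and 0.276 CPM, and the intervals of all its ratios included 0. No difference of *LTBP1* between the conditions was therefore detectable at this depth. Values of its relatives *LTBP2*, *LTBP3* and *LTBP4* are given further on.

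*FST* (chr5:53480626-53487134, plus strand) was at a higher level in each library than in the one before. Follistatin, its product, binds activin A tightly, and also some BMPs. The level of *FST* was 112 CPM (107.9 to 115.5) in Ctrl, 288 CPM (282 to 294) at 1-day, 536 CPM (528 to 544) at 3-day and 981 CPM (969 to 993) at 7-day. The steps from library to library were log2 ratios of 1.37 (1.31 to 1.43), then 0.90 (0.86 to 0.93) and then 0.87 (0.84 to 0.90). Against Ctrl the log2 ratio was 2.26 (2.21 to 2.32) at 3-day and 3.14 (3.08 to 3.19) at 7-day, and the level was 2.58-, 4.80- and 8.79-fold that of Ctrl at the 3 time points. Levels are not compared between genes here, because the share of each transcript that the 3′ assay captures was not measured.

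The summed levels cannot tell a change in the number of expressing cells from one in RNA per cell, so the share of cells with at least 1 UMI was also computed, as deposited and after each cell was thinned to 18000 UMIs. For *TGFBR1* the share went from 37.8% in Ctrl to 86.6%, 92.3% and 84.2% at the 3 time points, and after thinning 25.2%, 72.9%, 71.6% and 61.0%. For *TGFBR2* it was 37.1%, 77.3%, 93.9% and 93.5%, and after thinning 24.5%, 59.0%, 81.4% and 81.8%. Most treated cells thus had a UMI of each receptor, whereas most Ctrl cells had none. At an equal level in every cell, a Poisson draw at the depth of each cell would give *TGFBR1* in 40.1%, 91.7%, 93.9% and 88.8% of cells. For *TGFBR2* it would give 39.9%, 86.3%, 97.8% and 98.5%. The deposited shares lay under these, by most for *TGFBR2* at 1-day. A rise in share alone therefore does not separate more expressing cells from more RNA per cell.

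For *TGFB1* the share was 84.7% in Ctrl and between 98.3% and 99.6% in the treated libraries, and after thinning 73.2% and between 94.5% and 96.3%. For *ACVR1* it was 41.5%, 87.1%, 79.3% and 62.2%, and after thinning 25.2%, 70.7%, 49.9% and 37.0%. *TGFBR3* was seen in 23.0% of Ctrl cells and in 2.03%, 3.12% and 3.87% of cells at 1-day, 3-day and 7-day, which thinning brought to 14.1%, 1.33%, 1.18% and 1.46%. The order of its treated libraries changed with thinning and is not read here. A Poisson draw at an equal level in every cell would give *TGFBR3* in 24.5%, 2.11%, 3.34% and 4.29% of cells as deposited. For *ACVR1* it would give 43.3%, 90.0%, 81.2% and 64.9%. *TGFB2* was seen in 10.0% to 19.9% of cells, and *TGFB3* and *LTBP1* in at most 1.49% and 0.879% of the cells of any library. No cell type that should lack these genes was present, so the share that RNA free in the droplets gives was not measured.

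**Figure D3:**
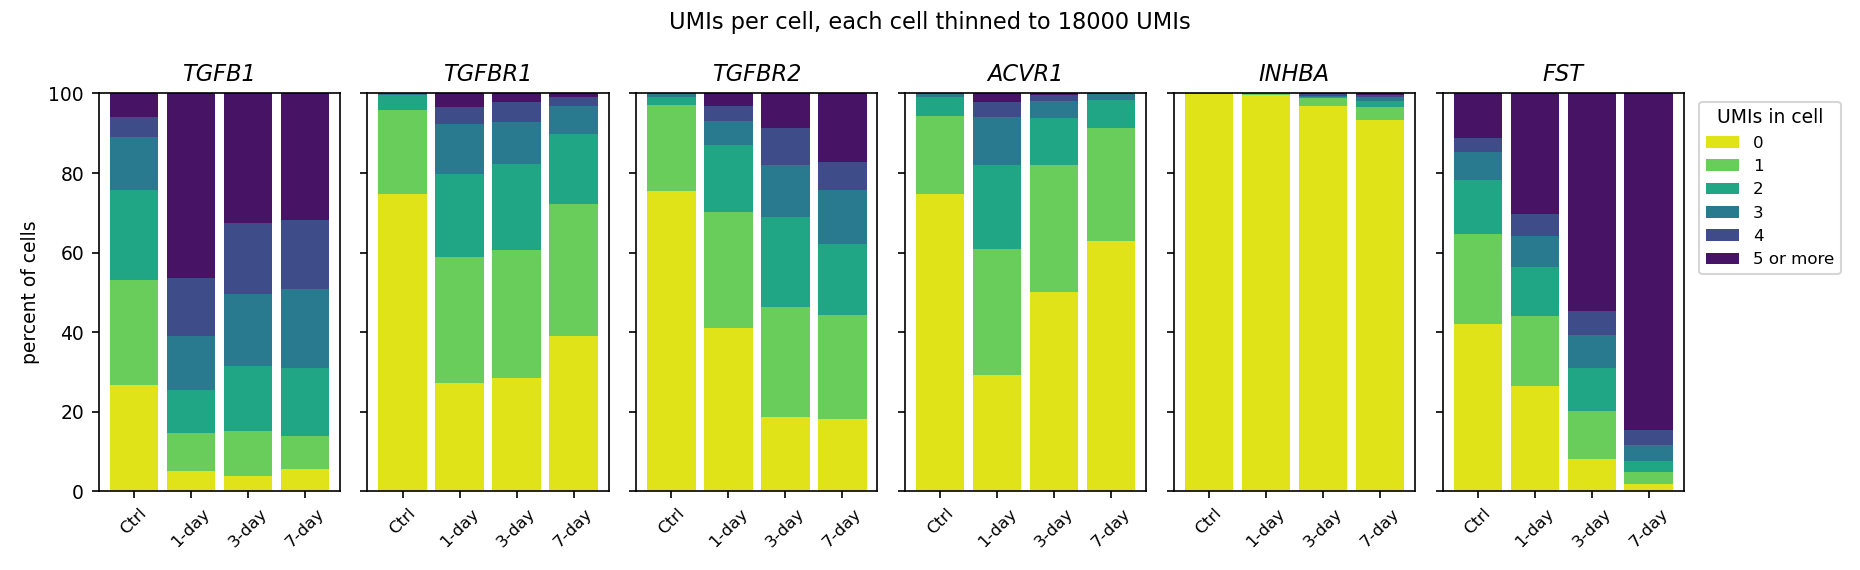
Percent of cells by the number of UMIs of a gene in the cell, from 0 to 5 or more, after each cell was thinned to 18000 UMIs, for 6 of the genes and the 4 libraries. The share without a UMI of *FST* shrinks from Ctrl to 7-day, the *ACVR1* share without a UMI is smallest at 1-day, and nearly all cells are without *INHBA* in every library.

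*FST* was spread unevenly over the cells. It was seen in 68.9% (65.8 to 71.9) of Ctrl cells, and in 83.9% (81.4 to 86.2), 97.0% (95.5 to 98.1) and 99.5% (98.5 to 99.9) of treated cells, in the order of time. At an equal level in every cell, a Poisson draw at the depth of each cell would leave 5.66%, 0.140%, 0.00454% and 0.000124% of cells without a UMI, while 31.1%, 16.1%, 2.98% and 0.527% were without. Cells of Ctrl that had no *FST* were thus found beside a cell with 78 UMIs, and the highest cells held 166, 197 and 225 UMIs at 1-day, 3-day and 7-day. The thinned median was 1, 2, 6 and 13 UMIs per cell, with quartiles of 0 and 2, 0 and 6, 2 and 13, and 7 and 25, so that the lower quartile at 7-day lay above the upper quartile of Ctrl and of 1-day. The variance of the thinned counts was 7.11 times their mean in Ctrl, and 13.1, 12.3 and 10.6 times it with treatment. For *TGFBR2* the same quotient was between 1.04 and 2.28, close to the 1 of a Poisson draw in Ctrl and highest at 7-day.

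*INHBA* RNA was held by a small number of cells. The gene had a UMI in 1 Ctrl cell (0.107%), 5 cells at 1-day (0.534%), 32 at 3-day (4.54%, 3.13 to 6.35) and 67 at 7-day (11.8%, 9.24 to 14.7), and after thinning in 0.118%, 0.333%, 3.10% and 6.74% of cells. At an equal level in every cell, 17.0% of cells at 3-day and 30.2% at 7-day would have had a UMI at the deposited depth. The shares to set beside these are the deposited 4.54% and 11.8%, not the thinned ones. The 10 cells with most *INHBA* UMIs held 69.9% of them at 3-day and 47.4% at 7-day, with up to 25 and 20 UMIs in a cell. At least 5 UMIs were found in 10 cells at 3-day and 15 at 7-day, and in 0 cells of Ctrl and 1-day.

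Pairs of the 10 genes were also followed in the same cell, after thinning. Both *TGFBR1* and *TGFBR2* had a UMI in 6.87% of Ctrl cells and in 44.6%, 59.4% and 51.5% of cells at 1-day, 3-day and 7-day, where the product of their separate shares was 6.19%, 43.0%, 58.3% and 49.9%. *INHBA* and *FST* shared 20 cells at 3-day and 36 at 7-day, or 2.95% and 6.56% of cells, beside products of 2.85% and 6.62%. Across cells of a library the largest Spearman rho between any pair of the 10 genes was 0.26, for *TGFBR2* and *FST* over 900 cells at 1-day. These cells share a library, and such values in sparse counts are given as a description.

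Because the share of G1 cells differed between the libraries, each level was also computed in G1 cells and in cells called S or G2M. *INHBA* differed most between them among the genes with enough UMIs. At 3-day it was at 8.47 CPM (7.06 to 10.1) in G1 cells and 0.406 CPM (0.163 to 0.835) in the others, and at 7-day at 15.5 CPM (13.1 to 18.1) and 3.71 CPM (2.82 to 4.80). The G1 cells held 126 of the 133 UMIs at 3-day (94.7%) and 151 of the 209 at 7-day (72.2%), while they made up 49.2% and 39.2% of the cells.

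*TGFBR2* had a smaller difference of the same direction, which was widest at 7-day. In G1 cells it was at 17.8, 69.0, 135.2 and 178 CPM in Ctrl, 1-day, 3-day and 7-day, and in S or G2M cells at 16.1, 48.8, 95.4 and 100.4 CPM. In Ctrl the intervals of the phases overlapped, and in the treated libraries they did not. *FST* was at 141 CPM in G1 cells of Ctrl beside 102 CPM in the others, and by 7-day at 1066 CPM beside 928 CPM. *ACVR1* was at 23.6 CPM in G1 cells and 16.8 CPM in the others of Ctrl, and for 1-day these values were 80.5 and 58.9 CPM. Within G1 cells alone all calls of the 10 genes against Ctrl were kept except that of *ACVR1* at 3-day.

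**Figure D4:**
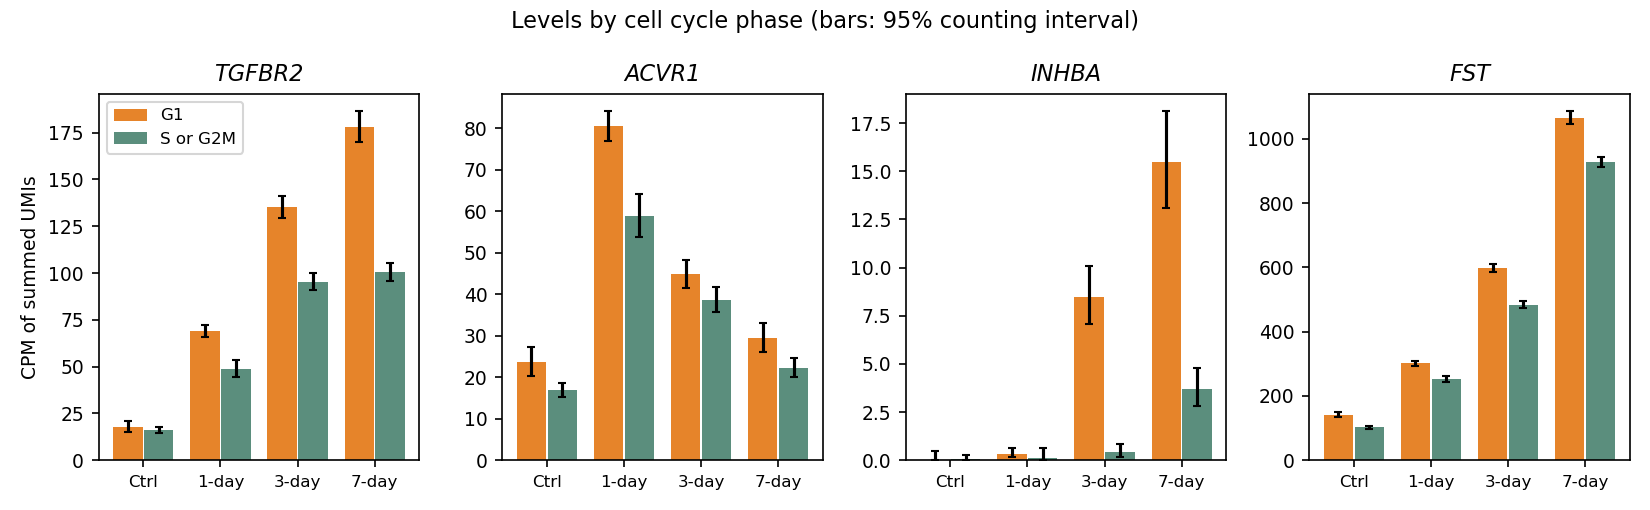
Level of *TGFBR2*, *ACVR1*, *INHBA* and *FST* in cells called G1 and in cells called S or G2M of each library, in CPM of summed UMIs, with bars as the exact Poisson 95% counting interval. The G1 bar is the higher one of each pair in the treated libraries, and for *INHBA* it reaches 15.5 CPM against 3.71 CPM at 7-day.

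The other genes of the pathway were counted by role, in lists also chosen with earlier results of these data known. Beside these counts, 9.87%, 10.5% and 12.8% of all genes with enough UMIs were higher at 1-day, 3-day and 7-day. The shares lower were 11.3%, 9.58% and 8.57%. Of 22 other ligands of the family, 6 had enough UMIs, and 2, 2 and 2 of them were higher and 0, 1 and 1 lower at 1-day, 3-day and 7-day, with 9 of the 22 at fewer than 3 UMIs in every library. *BMP2*, a bone morphogenetic protein, went from 7.90 CPM in Ctrl to 40.9, 74.0 and 82.6 CPM, and *BMP4* from 1.90 CPM to 8.32, 4.42 and 3.07 CPM. *BMP7* was at 1.93 CPM in Ctrl and 1.55, 0.560 and 0.236 CPM after treatment, lower by the rule at 3-day and 7-day. With 18 and 6 UMIs there, it had enough only through the 58 UMIs of Ctrl. *GDF11* was higher at 7-day alone, at 11.9 CPM against 5.67 CPM in Ctrl. *BMP4* was thus highest at 1-day, as was *ACVR1*, and *BMP2* at 7-day, as was *TGFBR2*. The median log2 ratio of the ligands with enough UMIs was -0.50, 0.29 and 0.57.

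Of 15 other receptors and co-receptors, 10 had enough UMIs, and 1, 1 and 2 were higher and 1, 2 and 1 lower at the 3 time points, with a median log2 ratio of 0.10, 0.23 and 0.27. *BMPR2*, the type II receptor for BMPs, went from 8.53 CPM to 62.7, 50.5 and 37.7 CPM. *BAMBI*, which encodes a pseudoreceptor that damps the pathway, went from 90.0 CPM to 62.3, 28.7 and 13.0 CPM, and passed the rule at 3-day and 7-day. *NRP1* and *NRP2* encode neuropilins, co-receptors that also bind TGF-β. *NRP1* was at 9.33 CPM in Ctrl and lower at 1-day and 3-day, at 4.28 and 4.64 CPM, and *NRP2* was higher at 7-day, at 22.9 against 9.03 CPM. The activin receptors *ACVR1B*, *ACVR2A* and *ACVR2B*, named here for their role after their values had been seen, were at 8.80, 3.27 and 4.37 CPM in Ctrl and 9.38, 3.11 and 7.49 CPM at 7-day, and none passed the rule.

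Among the lists of other pathway genes, that for latency, storage and activation of TGF-β held the most genes counted as higher by number. It also held the most genes with enough UMIs, so this order by number does not rank the lists by share or by size of change. Of 19, 12 had enough UMIs at 1-day and 13 later, and 8, 9 and 10 were higher and 0 lower, with a median log2 ratio of 1.32, 1.94 and 2.04. The gene that joins from 3-day on is *ITGB3*, which had enough UMIs through the treated libraries alone and whose 0 UMIs in Ctrl were set to a floor of 3 for the median. *LTBP2*, a relative of *LTBP1*, went from 0.533 CPM in Ctrl to 11.4, 15.8 and 16.8 CPM. Unlike that of *LTBP1*, its product does not bind latent TGF-β, so these values are not a measure of TGF-β storage. *LTBP2* has a place on this list by family. It is also among the reference targets counted above, and with 16 UMIs in Ctrl it too had enough UMIs only through the treated libraries. Other relatives of *LTBP1*, named here after their values had been seen, were not near the floor. *LTBP3* went from 9.73 CPM in Ctrl to 23.9, 14.3 and 11.4 CPM, and was counted as higher at 1-day. *LTBP4* went from 10.4 CPM to 20.6, 22.7 and 22.3 CPM, and was counted as higher at 3-day and 7-day. *FURIN*, a protease that cuts the TGF-β precursor, went from 10.3 CPM to 88.1, 55.5 and 33.1 CPM. *ITGB6*, the β subunit of an integrin that releases latent TGF-β, went from 29.0 CPM to 161, 190.1 and 227 CPM, and *THBS1*, the gene for the activator thrombospondin-1, from 121 CPM to 677, 577 and 498 CPM. *ITGB3*, another integrin β subunit, had 12, 56 and 50 UMIs after treatment, and the exact interval of its log2 ratio to Ctrl began at 3.78 at 3-day and at 3.95 at 7-day.

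Of 14 extracellular antagonists, 3, 4 and 5 had enough UMIs at 1-day, 3-day and 7-day, and 1, 2 and 4 of these were higher and 0 lower. The median log2 ratio was 0.30, 3.24 and 5.28, over a set that *NOG* joined at 3-day and *FSTL1* at 7-day through their treated libraries, so that the 3 medians are not over the same genes. *FSTL3*, a relative of *FST* whose product also binds activin, went from 2.27 CPM in Ctrl to 115, 163 and 88.4 CPM, so that it was highest at 3-day where *FST* was highest at 7-day. *NOG*, the gene for the BMP antagonist noggin, had 0 UMIs in Ctrl and 20, 156 and 118 UMIs after treatment, and the exact interval of its log2 ratio to Ctrl began at 5.29 at 3-day and at 5.22 at 7-day. *FSTL1*, which encodes a secreted relative of follistatin, had 1 UMI in Ctrl and 5, 22 and 56 after treatment, with a log2 ratio of 6.05 (3.51 to 11.4) at 7-day, and *TWSG1*, the gene for a BMP-binding protein, went from 10.6 CPM to 23.6 CPM at 7-day. Of 8 genes for SMADs and their nuclear partners, 6 to 7 had enough UMIs and 0 were counted in either direction at any time point, with a median log2 ratio of 0.23, -0.02 and 0.16. *SMAD9*, with 39 UMIs in Ctrl and 9 at 1-day, was just short of the minimum there, with a log2 ratio of -2.25 (-3.48 to -1.18).

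**Figure D5:**
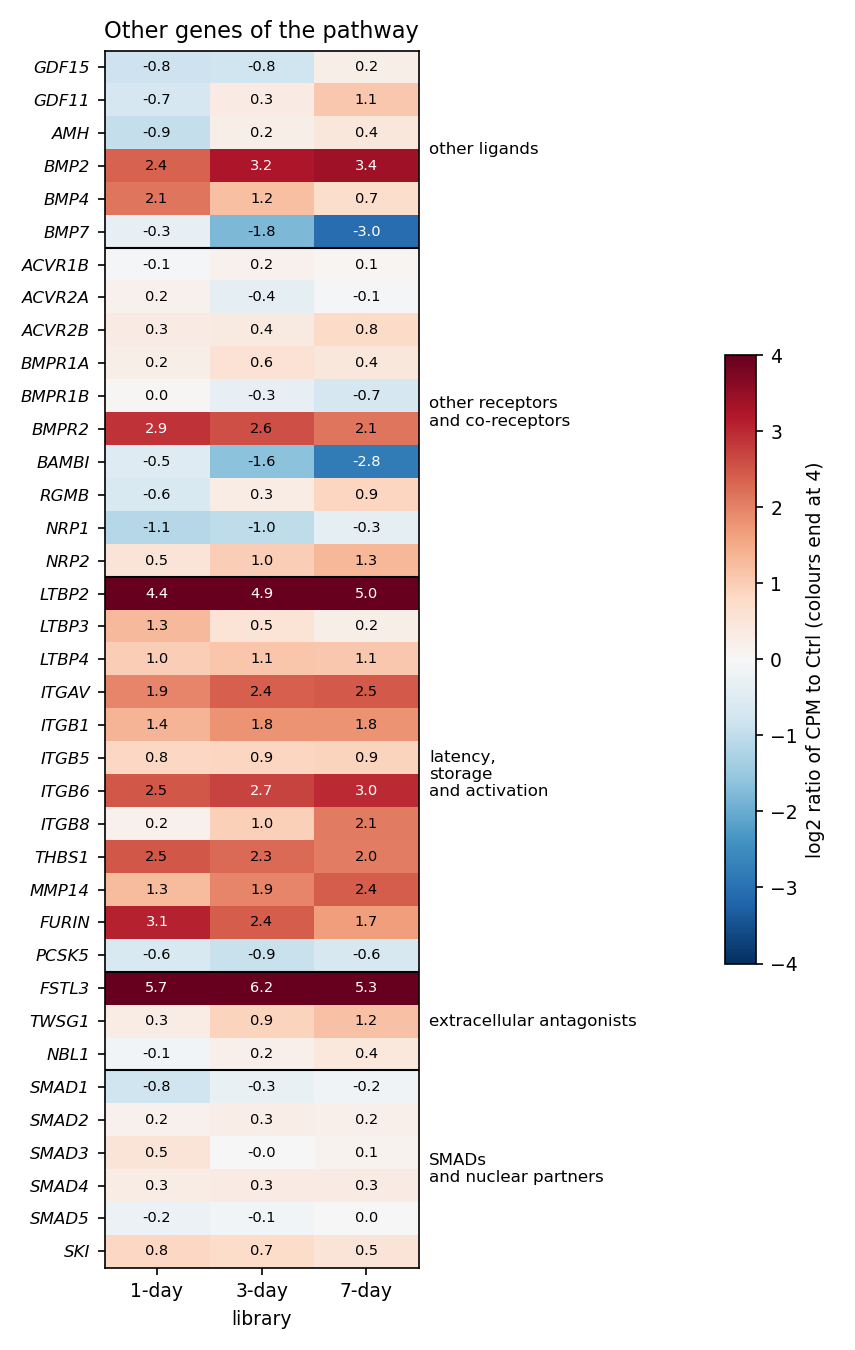
Log2 ratio of the level to Ctrl at 1-day, 3-day and 7-day for the 37 other genes of the pathway that had enough UMIs at all 3 time points, grouped by role, with the value printed in each cell and colours that end at a size of 4. *NOG*, *FSTL1*, *ITGB3* and *SMAD9* are among those not shown. Of the genes shown, *FSTL3* and *LTBP2* have the highest values and *BMP7* and *BAMBI* the lowest at 7-day.

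For the 7 of the 10 genes that were counted as higher or lower at some time point, the genes of most similar course were found by the Euclidean distance between the 3 log2 ratios to Ctrl, over the 6337 genes that reached 20 CPM in some library. This is a likeness over 4 libraries and says nothing of shared control. Nearest to *TGFB1* was *FNDC3B* at a distance of 0.117, nearest to *TGFBR1* was *NEDD9* at 0.217, and nearest to *ACVR1* was *DIRC2* at 0.204. For *TGFBR2* the nearest was RP5-875H18.9 at 0.256, followed by *RASGRP3* at 0.397. For *FST* it was *FAM65A* at 0.239, followed by *TMEM132A* at 0.359. For *TGFBR3* it was *FGF19* at 0.278, followed by *SPRY1* at 1.06. The *TGFBR3* ratios rest on 20 to 25 UMIs per treated library, and their counting intervals are wider than both distances. For *INHBA* the nearest were *GLIPR1* and *FGF5*, but its ratios rest on 1 UMI in Ctrl and their counting error is far wider than these distances, so none is given.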

How the data were processed

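The libraries were made with the 10x Genomics Single Cell 3′ kit from OVCA420 cells. For these files the authors ran Cell Ranger 2.0.1 on the GRCh38 build (submitters' processing notes) and deposited raw counts of UMIs per gene and cell. The paper gives default parameters for Cell Ranger, and whether counting used strand is not spelled out in the sources used here. The matrices analysed here end before the last listed barcode, so a library is represented by its first 941, 945, 712 and 572 cells (Ctrl, 1-day, 3-day, 7-day), and the last, incomplete cell was dropped. A cell was kept when it had over 200 genes, as in the study, and at most 20% mitochondrial UMIs, which removed 3 to 8 cells per library. The retained cells held 29995994, 32949874, 32139723 and 25382817 UMIs.

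UMIs were summed over cells per library. Thinning to 18000 UMIs left out 89, 37, 28 and 20 shallower cells. Scrublet in scanpy 1.11.5 marked 40 cells (1.27%) as doublets, which were retained except in the alternative without them, and phases were called with the gene lists of Seurat 5.3.0. The SCTransform normalization and regression of the study were not applied, and its tests over cells were not used, since cells of a library are not replicates. The ratio step was run on simulated Poisson counts with known ratios. These counts meet the assumption of the intervals, so the run could not test the intervals for genes spread unevenly over cells. Python 3.11.15 and scipy 1.17.1 were used.

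The 10 genes and the gene lists were chosen with earlier results of these data known. From each list of other pathway genes, at most 5 were named. These were among those with the largest ratio to Ctrl of the genes with at least 50 UMIs. Beside them, 3 activin receptors, *SMAD9*, *LTBP3* and *LTBP4* were chosen after their values were seen. The reference target *CCN2* is named *CTGF* in the deposited table. Genes of likeness are the 3 nearest. Values of 1 reference target are not reported here. Positions are those of GENCODE release 44, and upstream sequences those of RefSeq on GRCh38.p14, which held a window for all 10. The alternatives were other mitochondrial limits, doublets left out, G1 cells only, thinning, each part of the cells in barcode order, median-of-ratios scaling, means over cells, the 10 highest cells left out, and other limits of the rule.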

Additional observations from a re-analysis of the deposited data

How the results depend on the processing

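Of the counts of higher and lower genes, 77 under an alternative were within 1.5 times the value reported and 1 was not. Without a minimum of UMIs, 2 of the 10 genes were at least 2-fold below Ctrl at 3-day, the added gene being *TGFB3* with 14 UMIs. The calls of single genes were kept in 187 of 190 cases, and the 3 that were lost were all at 3-day. These were *ACVR1* in G1 cells (log2 ratio 0.92), *INHBA* after thinning to 18000 UMIs (5.64 on 41 UMIs, under the minimum) and *INHBA* without its 10 highest cells. No called ratio changed sign. Across the alternatives *FST* at 7-day lay between 2.92 and 3.27, *TGFBR2* between 2.92 and 3.32, *TGFBR1* between 1.66 and 2.24, *TGFB1* between 1.12 and 1.22, *TGFBR3* between -4.06 and -3.13, and *INHBA* between 4.97 and 8.02, the lowest being in the first part of its cells, where Ctrl had 0 UMIs. *TGFB2* at 1-day and 7-day, within counting error of Ctrl, changed sign under 2 and 4 of the 10 alternatives. Median-of-ratios scaling shifted all log2 ratios by at most 0.08. No paired analysis was possible because there is 1 library of each kind and the labels number no replicates. The limits are the 1 library per condition, the part of the cells that was read, and for *INHBA* in Ctrl, *TGFB3* and *LTBP1* counts of 14 UMIs or fewer per library.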

Other observations

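The cells with an *INHBA* UMI were set beside the other cells of their library, a split made after the values had been seen. They numbered 32 at 3-day and 67 at 7-day, with a median of 46088.5 and 45505 UMIs per cell against 43139 and 43262 in the cells without. Of those at 3-day 78.1% (60.0 to 90.7) were called G1, against 47.8% of the 673 cells without, and at 7-day 59.7% (47.0 to 71.5) against 36.5% of 502. *TGFBR2* was higher in the cells with *INHBA*, with a log2 ratio of 0.63 (0.45 to 0.81) at 3-day and 0.55 (0.42 to 0.68) at 7-day, and so was *FST*, with 0.58 (0.50 to 0.67) and 0.30 (0.25 to 0.35). *TGFB2* had a log2 ratio of 1.04 (0.30 to 1.71) at 3-day, on 20 UMIs in the cells with *INHBA*, and of 0.18 (-0.75 to 1.00) at 7-day. *TGFBR1* differed beyond counting error at 7-day alone, with 0.20 (-0.06 to 0.45) at 3-day and 0.58 (0.37 to 0.78) at 7-day.

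Reference targets of TGF-β signaling in the same cells did not move alike at both times. *TGFBI*, which encodes a matrix protein, had a log2 ratio of cells with over cells without *INHBA* of -0.20 (-0.31 to -0.09) at 3-day and 0.50 (0.41 to 0.59) at 7-day. *PMEPA1*, the gene for a feedback inhibitor of the pathway, had 0.09 (0.03 to 0.15) and 0.47 (0.42 to 0.52). Cells of a library are not replicates, and the share of G1 cells and the depth moved with this split, and their part in these ratios was not tested.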
